A study of Mus musculus with 12 samples.

Results

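The 9 genes described here encode the signalling path of the gp130 cytokines: the receptors Il6st, Il6ra, Lifr and Osmr, the kinases Jak1 and Jak2, the transcription factors Stat3 and Stat5b, and the phosphatase Ptpn11. They were taken by name, as the rows of 3 deposited tables of differentially hydroxymethylated regions whose first gene name was one of the 9. The names themselves were chosen with earlier results of these data known. The tables held 57 such rows of 70430 in all: 6 of 12244 between PL and control, 30 of 35242 between DCL and control, and 21 of 22944 between PL and DCL. Jak2 had no row in any of the 3 tables, so the rows came from 8 of the 9 genes.

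5-hydroxymethylcytosine (5-hmC), the oxidised form of methylcytosine, was enriched from genomic DNA of mouse dorsal root ganglia, which hold the cell bodies of sensory neurons. PL libraries were made 24 h after a peripheral lesion of the sciatic nerve, and DCL libraries 24 h after a central lesion of the dorsal columns. Control libraries came from the uninjured ganglia on the other side of the PL animals, so the controls are ganglia of injured animals and may share animals with the PL pools. Each group had 3 enriched libraries, each a pool of 3 animals, and the 3 un-enriched inputs are not analysed here; the sources used here give no strain, sex or age. The ganglion also holds satellite glia, Schwann cells, immune and vascular cells, and a change in the share of a cell type and a change of 5-hmC per cell cannot be told apart in these libraries. The tables hold only the regions the authors listed for each pair of groups, among them 176, 738 and 344 rows with a deposited adjusted p of 0.05 or more between PL and control, DCL and control, and PL and DCL. The level of tissue markers over all regions could therefore not be checked.

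Il6st encodes gp130, the signalling subunit shared by the receptors of interleukin-6, leukaemia inhibitory factor, ciliary neurotrophic factor and oncostatin M. Il6ra binds interleukin-6, while Lifr and Osmr pair with gp130 for the other ligands. JAK kinases bound to the receptor tails phosphorylate tyrosines on which STAT3 docks, and phosphorylated STAT dimers act as transcription factors in the nucleus. In sensory neurons this path is known for its activation after peripheral nerve injury. 5-hmC is made by TET enzymes mainly at CG pairs, and in neurons it is known to be found in gene bodies.

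The distances to a start site in the tables are counted from a transcript start, and the rows of Lifr and of Stat5b used 2 starts each, 10970 and 28015 bp apart on the mm9 build. The 4 windows of 300 bases around the matching RefSeq starts are printed because the sequence at the 2 starts of each gene differs in its content of CG pairs, the substrate of the mark. Each runs 5′ to 3′ on the strand of the gene from 250 bases before to 50 after the start, on build GRCm38.p6, with CG pairs in capitals; none of its coordinates is comparable with the mm9 positions given later.
Lifr upstream start, chr15:7129322-7129621, plus strand: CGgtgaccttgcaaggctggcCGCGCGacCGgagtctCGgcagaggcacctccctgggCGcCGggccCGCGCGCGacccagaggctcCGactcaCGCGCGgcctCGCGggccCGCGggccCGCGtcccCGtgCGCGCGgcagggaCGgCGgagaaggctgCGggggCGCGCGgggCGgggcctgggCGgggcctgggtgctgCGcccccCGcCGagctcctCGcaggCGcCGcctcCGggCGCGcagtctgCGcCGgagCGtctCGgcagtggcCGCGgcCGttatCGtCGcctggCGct
Lifr downstream start, chr15:7140292-7140591, plus strand: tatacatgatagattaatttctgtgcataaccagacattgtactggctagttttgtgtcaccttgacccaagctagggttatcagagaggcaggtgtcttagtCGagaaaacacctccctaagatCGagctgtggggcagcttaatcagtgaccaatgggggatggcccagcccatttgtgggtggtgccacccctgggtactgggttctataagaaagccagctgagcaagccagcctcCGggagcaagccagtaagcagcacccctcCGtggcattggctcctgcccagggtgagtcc
Stat5b upstream start, chr11:100850532-100850831, minus strand: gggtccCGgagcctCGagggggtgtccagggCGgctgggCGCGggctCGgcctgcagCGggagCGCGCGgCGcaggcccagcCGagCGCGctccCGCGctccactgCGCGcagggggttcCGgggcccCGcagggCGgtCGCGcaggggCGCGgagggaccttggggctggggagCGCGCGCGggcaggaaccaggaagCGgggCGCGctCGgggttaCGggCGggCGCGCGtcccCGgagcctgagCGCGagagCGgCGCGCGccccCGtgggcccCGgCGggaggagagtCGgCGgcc
Stat5b downstream start, chr11:100822521-100822820, minus strand: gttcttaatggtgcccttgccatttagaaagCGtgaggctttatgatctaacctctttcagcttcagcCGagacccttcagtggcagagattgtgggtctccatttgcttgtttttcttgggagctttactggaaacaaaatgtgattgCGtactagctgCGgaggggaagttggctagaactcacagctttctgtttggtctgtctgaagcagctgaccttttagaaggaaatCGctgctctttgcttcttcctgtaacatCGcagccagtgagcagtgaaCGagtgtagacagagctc

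The upstream window of Lifr held 53 CG pairs and its downstream window 4. Only 0.451% of 32851 RefSeq promoter windows held 53 or more, and 68.6% held 4 or more. The upstream window of Stat5b held 50 CG pairs, which 0.855% of windows reached, and its downstream window 7, the median of all windows. All 9 genes matched, with 11 windows, and the 7 other windows held from 15 pairs (Stat3) to 44 (Jak2). The STAT palindrome TTCNNNGAA, which reads the same on both strands, was in none of the 11 windows and in 8.30% of all windows. By the distances in the tables, no listed region of the 9 genes reached such a window: the nearest edge of a region to its listed start was 833 bp away, in Osmr. Of the 57 regions, 53 were placed in gene bodies and 4 in promoter classes, and their length was 200 to 460 bp with a median of 240 bp. A position shared between tables is counted in each of them, as is the Osmr promoter position. The shares of these classes over all rows are not given here.

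The unit of all values is the authors' normalised read count, the reads in a region times a factor of the library, set separately in each table. In the PL table a single read counted as 0.907, 1.5 and 1.77 in the PL libraries, in the order of listing, and 1.05, 0.668 and 0.576 in its controls. In the DCL table it counted as 3.14, 1.49 and 0.658 in the DCL libraries, so the first-listed DCL library was the shallowest as the scaling saw it, and a value of 0 there allows up to 9.41 (3 reads, counting error only). The total depth is unknown. The rows are a selection by the authors, and 3 against 3 libraries cannot give a two-sided exact permutation p under 0.1, so no test was added, and values are described beside the authors' deposited statistics.

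**Figure D1:**
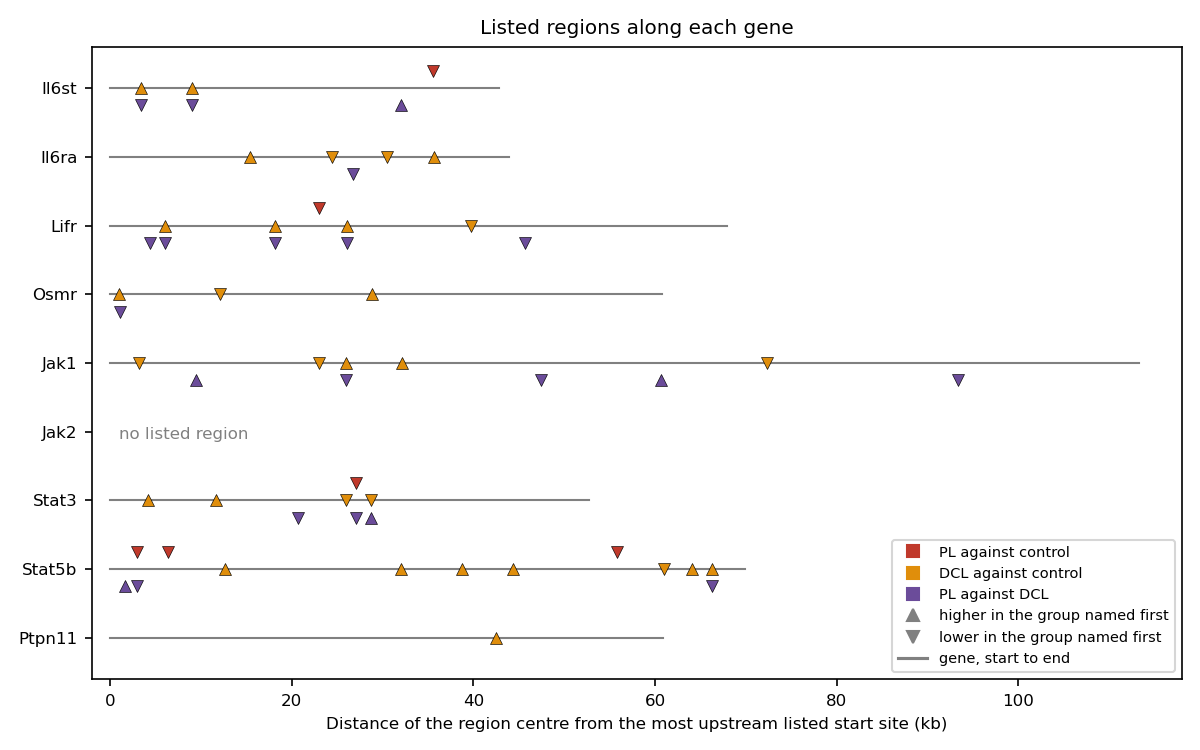
Listed regions along the 9 genes, by distance of the region centre from the most upstream listed start site in kb. Triangles up mark regions higher and triangles down regions lower in the group named first, by comparison (colour), and grey lines span the 8 genes with a region, as the tables give them. The 6 PL regions all point down, Jak2 has none, and Stat3 has regions of opposite direction side by side at 26.0 to 28.7 kb.

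The first comparison asked where 5-hmC in these genes differed after peripheral lesion. Every one of the 6 listed regions was lower after PL than in control, 3 of them in Stat5b and 1 each in Stat3, Il6st and Lifr, and the control mean was 2.39 to 4.49 times the PL mean. Lower regions made up 49.6% of all regions in that table. Il6ra, Osmr, Jak1, Jak2 and Ptpn11 had no listed region between PL and control. A listed region was present in 4 of the 9 genes, against 20.2% of 21900 protein-coding genes. By direction, 4 of 9 had a lower region, against 11.8% of genes, and none had a higher one, against 12.6%. The 9 genes are long, from 42.8 to 113 kb in the reference table against a median of 17.1 kb over all protein-coding genes. The part of length in these shares was not tested. Because the genes were chosen with earlier results of these data known, the shares describe the set and are no test of enrichment.

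Il6st, the gp130 subunit, carried 1 region late in its gene body, at chr13:113289701-113289920 (mm9), 35532 bp from its start. Its normalised read counts were 5.44, 3.0 and 1.77 in the 3 PL libraries and 16.8, 14.03 and 14.98 in the 3 control libraries. The groups did not overlap, and the third-listed PL library was lowest, with 1 read. The means were 3.4 ± 1.87 after PL and 15.3 ± 1.42 in control (SD, n = 3 each), a log2 ratio of -2.17, the largest of the 6 in size with all libraries in. Lifr, the receptor of leukaemia inhibitory factor, carried the region with the most reads, at chr15:7102361-7102820, which lies 12048 bp beyond its downstream start. PL libraries held 29.9, 12.0 and 19.5, and control libraries 66.3, 54.1 and 52.5. The groups lay wide apart, with means of 20.5 ± 9.0 after PL and 57.6 ± 7.55 in control (SD, n = 3 each).

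Stat3, the main factor activated by gp130, carried 1 region near the middle of its gene, at chr11:100773641-100773840, 27085 bp from its start. The values were 9.07, 14.99 and 10.7 after PL and 38.9, 35.4 and 23.1 in control, with no overlap and the third-listed control library nearest to the PL values. Means were 11.6 ± 3.07 after PL and 32.5 ± 8.34 in control (SD, n = 3 each), a log2 ratio of -1.49.

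Stat5b, the STAT factor of growth hormone signalling, carried 3 lower regions. The region nearest its upstream start lay 2989 bp away, at chr11:100708781-100709040, placed in the class Promoter3k, and held 20.9, 10.5 and 19.5 after PL and 42.1, 46.1 and 33.4 in control. The highest PL library stayed below the lowest control library, with means of 16.96 ± 5.63 after PL and 40.5 ± 6.47 in control (SD, n = 3 each). The region 6389 bp from the same start, at chr11:100705401-100705620, held 2.72, 3.0 and 10.7 after PL and 17.9, 18.03 and 15.6 in control. Here the third-listed PL library, with 6 reads, was the highest of the PL values, and the log2 ratio of -1.65 was -2.58 without it. The region at chr11:100655981-100656180, 27804 bp beyond the downstream start, held 6.35, 0 and 5.32 after PL and 17.9, 14.7 and 12.7 in control. The second-listed PL library had no read there, which allows up to 4.5 by counting error, and the other PL libraries had 7 and 3 reads. The log2 ratio of -1.96 was -1.37 without that library. The authors' deposited table gave adjusted p-values of 0.00595 for Lifr, 0.00648 for Il6st, 0.00943 for Stat3 and 0.00846, 0.0125 and 0.0141 for the Stat5b regions in the order 6.39, 55.8 and 2.99 kb from the upstream start. They were under 0.01 in 4 of the 6, against 49.4% of all regions in that table.

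**Figure D2:**
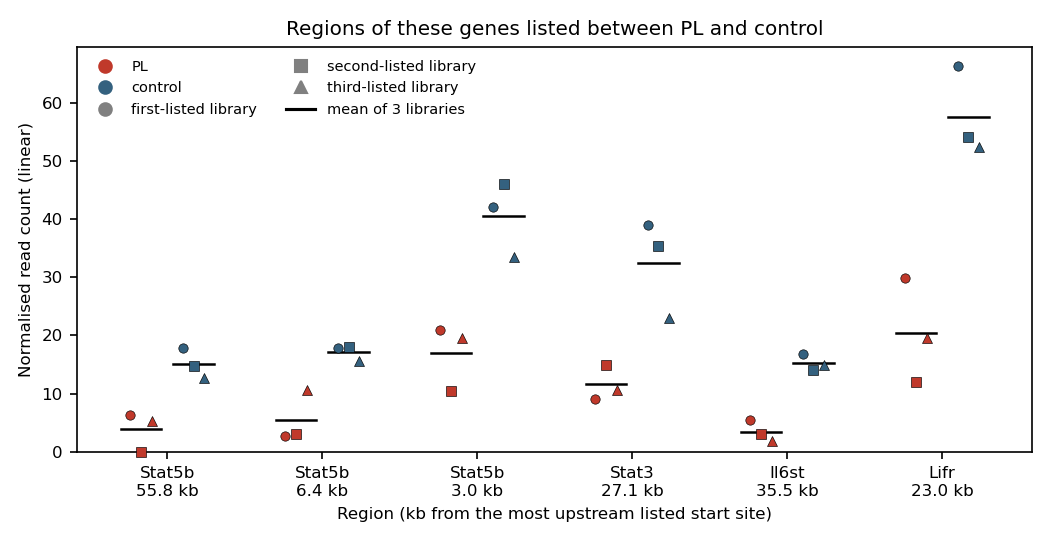
Normalised read count (linear axis) in each PL library (left) and control library (right) of the 6 regions listed between PL and control. Marker shapes give the order of listing and bars the mean of 3 libraries. In all 6 regions the 3 PL libraries lie below the 3 control libraries.

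All 6 regions had all PL libraries below all control libraries, as did 100% of lower regions in that table (6066 of 6067, while 95.6% of its higher regions were apart). The separation was thus shared by the whole list. The median log2 ratio was -1.57 in the 6 regions and -1.65 over all lower regions of the table. Leaving out any 1 library kept each of the 6 at least 1.5-fold lower. The share of all lower regions that do so is not given here, so this is not shown to be particular to the 6.

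The second comparison asked where 5-hmC in these genes differed after central lesion. Of 30 listed regions 20 were higher (66.7%, against 82.9% of all regions in that table) and 10 lower after DCL than in control. Regions were listed in 8 of the 9 genes, all but Jak2, against 38.3% of protein-coding genes. A higher region was found in 8 of 9 genes, against 35.4% of genes, and a lower one in 6 of 9, against 11.9%. As between PL and control, these shares are no test of enrichment, because the genes were chosen with earlier results known. The higher regions rested largely on 1 library: the first-listed DCL library was the highest DCL library in 19 of the 20. It lay above all controls in 20 of them, the second-listed in 16 and the third-listed in 8, and in 4 the third-listed lay below all controls. The same counts over all higher regions are not given here. Over all regions of that table the medians were 53.3, 22.4 and 17.1 in the DCL libraries and 16.6, 16.1 and 16.0 in control. A high first-listed DCL library was therefore also seen over the whole table. All libraries were apart in 7 of the 20, against 46.5% of higher regions in the table, and in 10 of the 10 lower regions, against 99.7%. Leaving the first-listed DCL library out, 8 of the 20 kept a 1.5-fold difference (40%, against 51.4% of all higher regions). All 10 lower regions kept theirs, as did 99.8% of all lower regions in that table. The median log2 ratio of the 20 was 1.07 with that library and 0.43 without it.

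**Figure D3:**
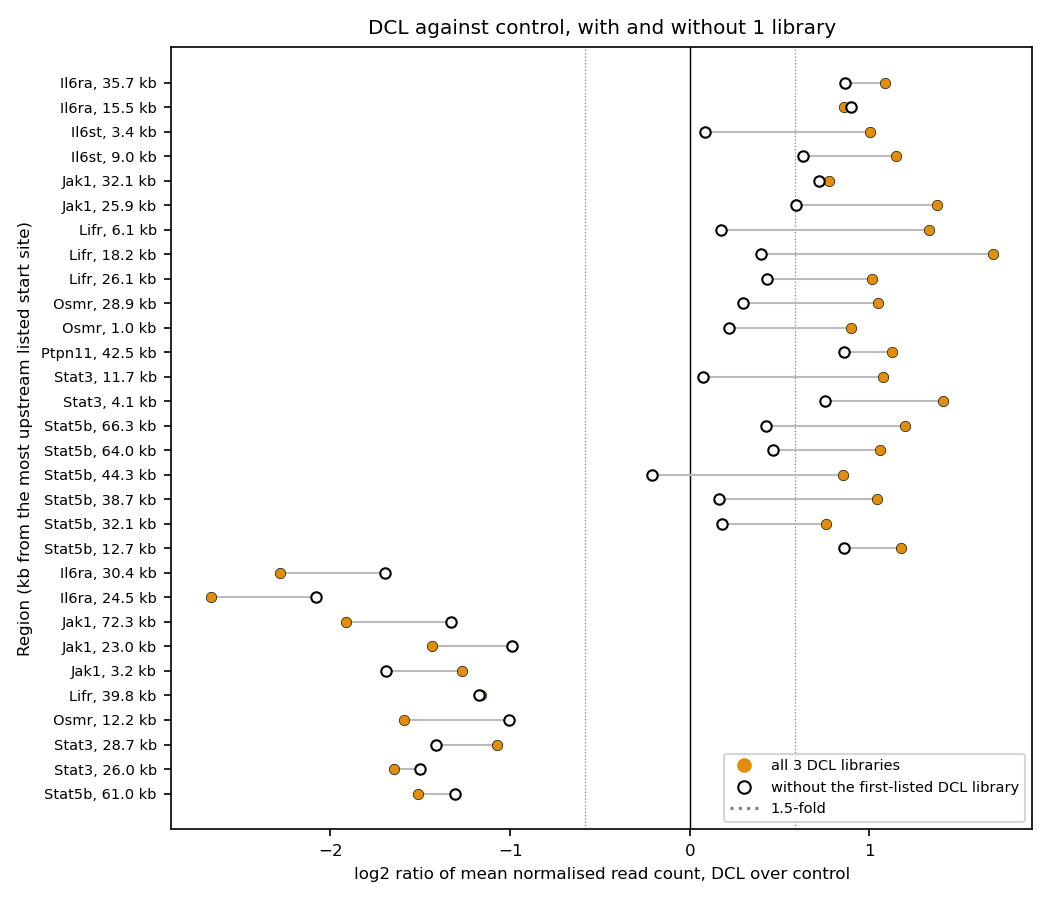
Log2 ratio of the mean normalised read count, DCL over control, in the 30 regions listed between these groups, with all 3 DCL libraries (filled) and without the first-listed one (open); dotted lines mark 1.5-fold. The 10 lower regions stay beyond the line, while 12 of the 20 higher regions move inside it, 1 of them in Stat5b to the other side of 0.

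Among the receptors, Il6ra, which binds interleukin-6, carried 2 higher and 2 lower regions, and the higher ones were shared by all 3 DCL libraries. The region 15458 bp from its start, at chr3:89701501-89701820, held 56.5, 67.2 and 55.3 after DCL and 30.2, 35.95 and 32.6 in control. Values of the 3 DCL libraries lay close together and all above control, with means of 59.6 ± 6.57 after DCL and 32.9 ± 2.88 in control (SD, n = 3 each), and the log2 ratio of 0.86 was 0.90 without the first-listed library. The other higher region, at chr3:89681301-89681580, held 47.05, 25.4 and 37.5 after DCL and 14.6, 17.97 and 19.2 in control, with a log2 ratio of 1.08 and 0.86 without the first-listed library. Of the 2 lower regions, the one 24458 bp from the start, at chr3:89692561-89692760, held 0, 1.49 and 4.61 after DCL and 12.7, 14.9 and 11.2 in control. These are 0, 1 and 7 reads after DCL against 13, 24 and 21 in control, with a log2 ratio of -2.67. It was -2.08 without the first-listed DCL library and -4.12 without the third-listed one. The one at chr3:89686581-89686780 held 0, 2.99 and 5.92 after DCL and 15.6, 15.5 and 12.3 in control, again with no read in the first-listed DCL library, and its log2 ratio of -2.28 was -3.27 without the third-listed one.

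Il6st carried 2 higher regions in the 5′ part of its gene body. At chr13:113263081-113263460, 8992 bp from the start, DCL libraries held 84.7, 41.8 and 32.2 and control libraries 31.2, 22.3 and 18.2. All DCL values lay above control, the third-listed by a small margin, and the log2 ratio of 1.15 was 0.63 without the first-listed library. At chr13:113257481-113257900, 3412 bp from the start, they held 213, 67.2 and 49.4 after DCL and 58.5, 53.9 and 52.4 in control. There the first-listed library alone stood far above control, the third lay below all controls, and the log2 ratio of 1.00 was 0.09 without the first.

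Lifr carried 3 higher regions and 1 lower one. The region at chr15:7097561-7097940, 7208 bp beyond the downstream start, held 188, 38.8 and 31.6 after DCL and 30.2, 22.3 and 27.8 in control. Its log2 ratio of 1.69 was the largest among the 20 higher regions, and it was 0.39 without the first-listed library. The region at chr15:7105421-7105860 held 292, 140.4 and 93.4 after DCL and 83.8, 84.3 and 92.4 in control, and its third-listed DCL value lay just above the highest control value. The region at chr15:7085521-7085780, 6078 bp beyond the upstream start, held 100.4, 26.9 and 15.8 after DCL and 21.4, 24.2 and 11.2 in control, so that the second- and third-listed DCL libraries lay near or within the control range. Its log2 ratio of 1.33 was 0.17 without the first-listed library. The lower region, at chr15:7119241-7119440, held 15.7, 20.9 and 9.87 after DCL and 39.96, 37.8 and 26.2 in control, with no overlap and a log2 ratio of -1.16, which was -1.17 without the first-listed library.

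Osmr, the receptor of oncostatin M, had 2 higher regions and 1 lower one. A higher region 993 bp from its start, at chr15:6823161-6823480, was the only one of the 30 in a promoter class (Promoter1k). It held 100.4, 34.3 and 37.5 after DCL and 27.3, 35.3 and 29.9 in control, where the second-listed DCL library lay within the control range, and the log2 ratio of 0.90 was 0.22 without the first-listed library. The other higher region, at chr15:6795301-6795580, held 53.3, 17.9 and 17.1 after DCL and 14.6, 17.97 and 10.2 in control, and only the first-listed DCL library lay above all controls, without which the log2 ratio of 1.05 was 0.30. The lower region, at chr15:6811981-6812340, held 0, 22.4 and 12.5 after DCL and 32.2, 40.9 and 32.05 in control. It stayed lower without the first-listed library, which had no read there, at a log2 ratio of -1.01 in place of -1.59, and the ratio was -2.49 without the second-listed library.

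Jak1, the kinase most used by gp130, carried 2 higher and 3 lower regions over its 113 kb. The higher region at chr4:100905601-100905920, 32127 bp from the start, held 62.7, 58.2 and 54.6 after DCL and 36.1, 34.1 and 32.6 in control. It had the smallest spread of the higher regions, with means of 58.5 ± 4.07 after DCL and 34.2 ± 1.74 in control (SD, n = 3 each), and a log2 ratio of 0.77 that was 0.72 without the first-listed library. The higher region at chr4:100911821-100912080 held 125, 56.7 and 22.4 after DCL and 22.4, 25.4 and 30.99 in control, and its third-listed DCL value lay just below all controls. Its log2 ratio of 1.38 was 0.59 without the first-listed library. The lower region 3227 bp from the start, at chr4:100934561-100934760, held 9.41, 5.97 and 3.29 after DCL and 17.5, 12.4 and 14.96 in control. Its first-listed DCL library was the highest of the 3, and the log2 ratio of -1.27 was -1.69 without it. The lower region at chr4:100914801-100915000 held 3.14, 11.9 and 18.4 after DCL and 28.3, 29.8 and 32.6 in control, and that at chr4:100865461-100865660 held 0, 7.47 and 6.58 after DCL and 17.5, 20.4 and 14.96 in control.

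Stat3 carried 2 higher regions in its 5′ part and 2 lower ones near its middle. The higher region 4135 bp from the start, at chr11:100796541-100796840, held 75.3, 32.9 and 22.4 after DCL and 16.6, 14.9 and 17.6 in control. All DCL values lay above control, and the log2 ratio of 1.41 was 0.76 without the first-listed library. The other higher region, at chr11:100789061-100789280, held 50.2, 11.9 and 13.2 after DCL and 14.6, 9.92 and 11.2 in control, and its log2 ratio of 1.07 was 0.07 without the first-listed library. The lower regions lay at chr11:100774721-100774940 and chr11:100772041-100772240, on either side of the position that was lower after PL. At chr11:100774721-100774940 the values were 6.27, 4.48 and 13.2 after DCL and 28.3, 24.2 and 22.4 in control, with a log2 ratio of -1.65. At chr11:100772041-100772240 they were 18.8, 10.4 and 10.5 after DCL and 32.2, 25.4 and 26.2 in control, with a log2 ratio of -1.07.

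Stat5b had the most regions of the 9 genes, 6 higher and 1 lower. None of its 6 higher regions had all libraries apart, and in 5 of them the log2 ratio without the first-listed library was between -0.21 and 0.46. The region with the smallest deposited adjusted p, at chr11:100645481-100645740, held 87.8, 35.8 and 20.4 after DCL and 18.5, 22.9 and 21.4 in control. The third-listed DCL library lay within the control range, and the log2 ratio of 1.2 was 0.43 without the first-listed one. The sixth, at chr11:100699121-100699360, held 50.2, 43.3 and 14.5 after DCL and 14.6, 15.5 and 17.6 in control, with a log2 ratio of 1.18 that was 0.86 without the first-listed library, although its third-listed DCL value was below all controls. The lower region, at chr11:100650781-100650980, held 6.27, 11.9 and 9.21 after DCL and 23.4, 30.99 and 24.04 in control, with no overlap and means of 9.14 ± 2.84 after DCL and 26.1 ± 4.21 in control (SD, n = 3 each). Stat5b lies beside its near-identical copy Stat5a, and the sources used here do not say how reads that match both were placed.

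Ptpn11, the SHP2 phosphatase that docks on gp130 and links it to the MAP kinase path, had 1 region in all tables, higher after DCL. At chr5:121598821-121599020, 42486 bp from its start, it held 40.8, 34.3 and 16.4 after DCL and 14.6, 16.7 and 10.7 in control. The third-listed DCL library lay just below the highest control, and the log2 ratio of 1.12 was 0.86 without the first-listed library. All 30 regions in the authors' deposited table had an adjusted p under 0.01, against 92.4% of all regions, from 0.000267 in regions of Stat3, Lifr, Jak1 and Stat5b to 0.0093 in the lower region of Osmr.

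**Figure D4:**
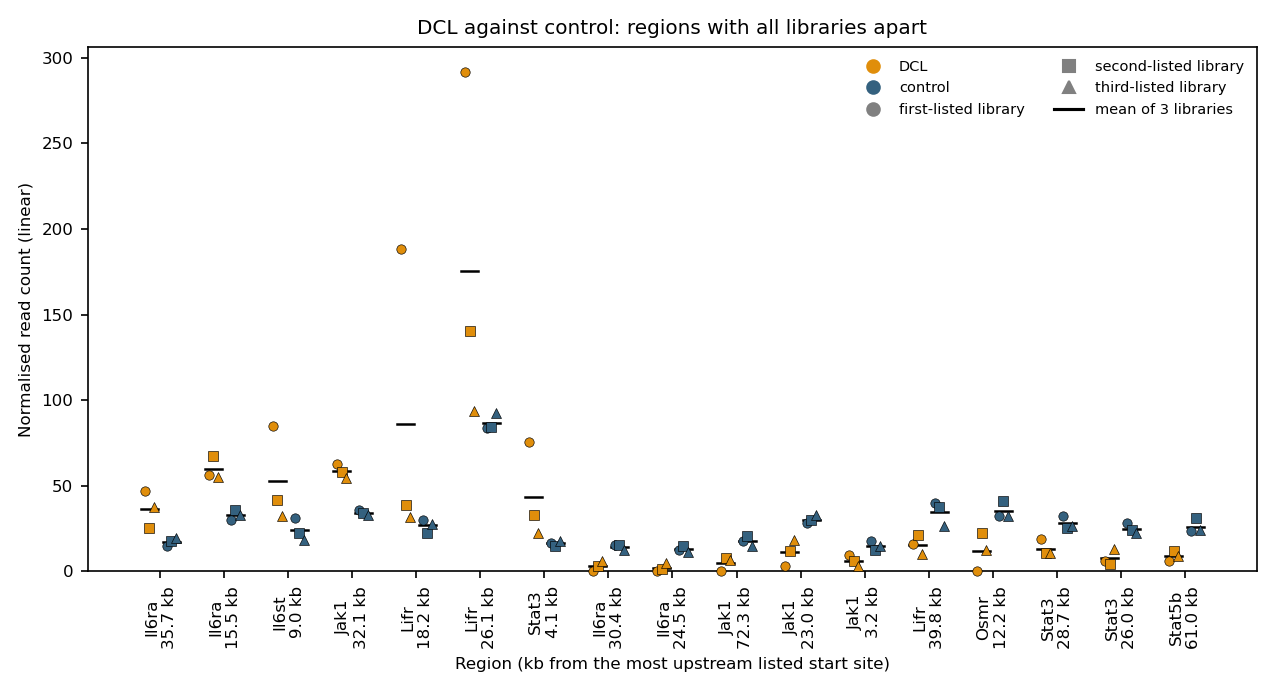
Normalised read count (linear axis) in each DCL library (left) and control library (right) of the 17 regions whose DCL libraries all lie on one side of all controls, 7 higher and then 10 lower. Bars are means of 3 libraries. The first-listed DCL library (circle) reaches 292 in Lifr, while the DCL values of Il6ra at 15.5 kb and Jak1 at 32.1 kb lie between 54.6 and 67.2.

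The direct comparison of both lesions listed 21 regions, 5 higher after PL than after DCL and 16 lower (76.2%, against 75.1% of all regions in that table), from 7 of the 9 genes, against 30.7% of protein-coding genes. A region higher after PL was listed in 4 of 9 genes, against 11.7% of genes, and a lower one in 7 of 9, against 26.1%. Here too the choice of genes with earlier results known means that the shares are no test of enrichment. All libraries were apart in 5 of 5 higher regions, against 98.5% of such regions, and in 9 of 16 lower ones, against 59%. With the first-listed DCL library left out, 10 of the 16 kept a 1.5-fold difference (62.5%, against 70.4% of all such regions). All 5 higher ones kept theirs, as did 100% of all higher regions in that table. The median log2 ratio of the 16 was -1.35 with that library and -0.97 without it. The adjusted p in the authors' deposited table was under 0.01 in 20 of the 21, against 93.1% of all regions.

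The 5 regions higher after PL lay in Jak1, Stat3, Stat5b and Il6st, and all had low reads after DCL. In Jak1 the region at chr4:100928261-100928500, 9507 bp from the start, held 21.1, 20.6 and 15.9 after PL and 4.68, 8.86 and 6.83 after DCL, a log2 ratio of 1.5, with 2, 8 and 14 reads in the DCL libraries. The Jak1 region at chr4:100877141-100877360 held 21.7, 21.6 and 15.9 after PL and 4.68, 11.1 and 7.31 after DCL. In both, the lowest PL value lay above the highest DCL value. Il6st had a region at chr13:113286201-113286420, 32032 bp from the start, with 14.2, 12.3 and 18.4 after PL and 9.36, 4.43 and 3.9 after DCL. It lay upstream of the Il6st region that was lower after PL than in control. In Stat5b the region 1619 bp from the upstream start, at chr11:100710181-100710380, was in the class Promoter3k and held 17.4, 21.6 and 24.5 after PL and 11.7, 14.4 and 5.85 after DCL. It was the only one of the 5 in a promoter class.

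In Stat3, neighbouring positions differed in direction. At chr11:100772041-100772260 PL libraries held 19.2, 28.8 and 25.8 and DCL libraries 14.1, 9.97 and 8.78, with no overlap and a log2 ratio of 1.17. The same position was lower after DCL than in control. Nearer to the start, at chr11:100773661-100773900, the order was the other way, with 12.4, 21.6 and 12.3 after PL and 25.8, 35.5 and 33.2 after DCL, and a log2 ratio of -1.03 that was -1.15 without the first-listed DCL library. That position was lower after PL than in control. The remaining Stat3 region, at chr11:100779961-100780220, held 8.06, 11.3 and 8.59 after PL and 21.1, 26.6 and 18.5 after DCL, again with all PL libraries below all DCL libraries.

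Of the regions lower after PL than after DCL, those of Stat3 (above), Il6ra and Jak1 included some that did not rest on the first-listed DCL library. Il6ra had 7.44, 13.4 and 8.59 after PL and 23.4, 25.5 and 19.99 after DCL at chr3:89690241-89690480, with a log2 ratio of -1.23 that was -1.21 without that library. Jak1 had 3.1, 9.26 and 6.13 after PL and 14.1, 17.7 and 16.6 after DCL at chr4:100890321-100890520, where the first-listed DCL library was the lowest of the 3. At chr4:100844381-100844640 Jak1 had 7.44, 9.26 and 6.13 after PL and 37.5, 15.5 and 17.6 after DCL. There the first-listed DCL library was the highest, and the log2 ratio of -1.63 was -1.12 without it. Lifr had 5 lower regions. That with its smallest deposited adjusted p, at chr15:7097521-7097880, held 29.1, 28.8 and 23.3 after PL and 136, 28.8 and 18.04 after DCL, and its log2 ratio of -1.17 turned to 0.21 without the first-listed DCL library. At chr15:7085521-7085720 the values were 11.8, 19.5 and 9.81 after PL and 74.9, 17.7 and 8.78 after DCL, and the log2 ratio of -1.30 turned to 0.05 without that library. In both, the other DCL libraries overlapped with PL or lay below it. Its region at chr15:7125081-7125320 kept all libraries apart, with 10.5, 7.2 and 11.04 after PL and 49.2, 18.8 and 15.1 after DCL, and its log2 ratio of -1.53 was -0.82 without the first-listed DCL library. Its region at chr15:7083881-7084100 held 9.3, 12.3 and 6.13 after PL and 37.5, 32.1 and 11.7 after DCL.

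**Figure D5:**
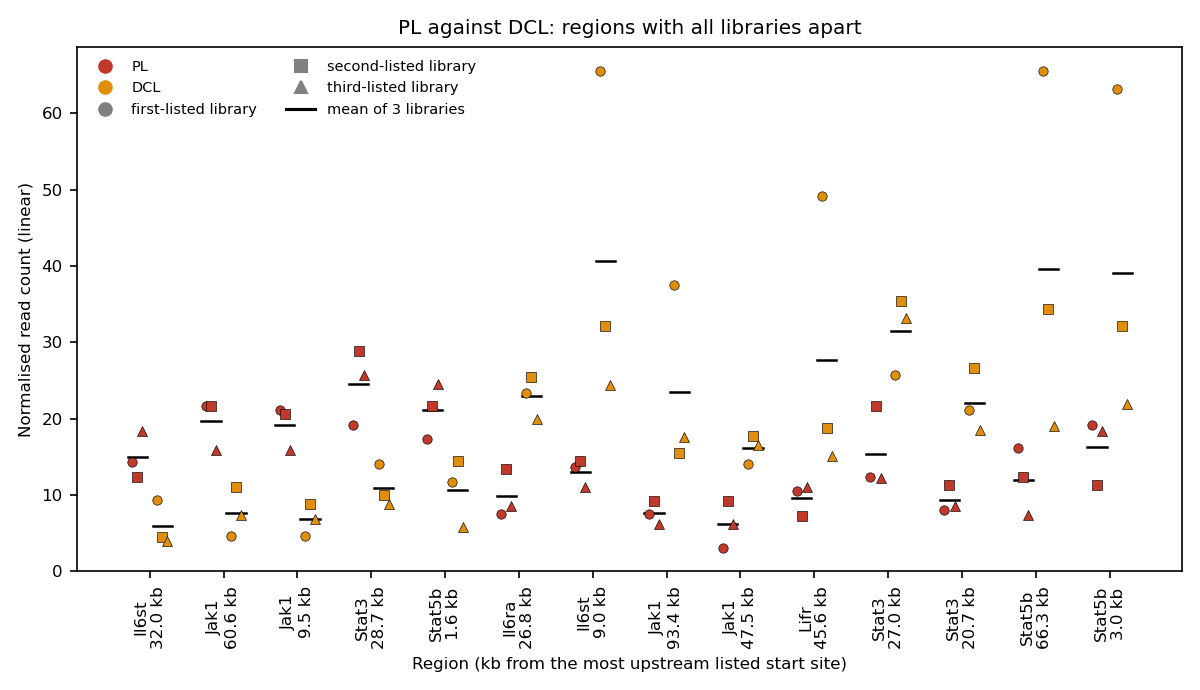
Normalised read count (linear axis) in each PL library (left) and DCL library (right) of the 14 regions whose PL libraries all lie on one side of all DCL libraries, 5 higher and then 9 lower. Bars are means of 3 libraries. DCL values of the 5 higher regions lie between 3.90 and 14.4.

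Several positions were listed in 2 tables, which share the libraries of 1 group, so one listing does not stand apart from the other. The scale differs between tables. A read of a PL library counted 1.45 to 1.46 times as much in the PL table as in the direct table. The means of a position can therefore be compared within a table but not between tables. At the Stat5b position near 3 kb, PL means were 16.96 ± 5.63 against 40.5 ± 6.47 in control in the PL table and 16.3 ± 4.35 against 39.1 ± 21.5 after DCL in the direct table (SD, n = 3 each). The libraries of the direct table held 19.2, 11.3 and 18.4 after PL and 63.2, 32.1 and 21.9 after DCL, all apart. The table placed it in Promoter3k in the first listing and in the gene body in the second, where the listed distances were 2989 and 3019 bp. At the Stat3 position near 27 kb they were 11.6 ± 3.07 against 32.5 ± 8.34 in control and 15.4 ± 5.35 against 31.5 ± 5.07 after DCL (SD, n = 3 each).

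Where DCL was higher than control and also higher than PL, the DCL libraries are the ones shared. Here too the scales differ, and a read of a DCL library counted 1.34 to 1.35 times as much in the DCL table as in the direct table. At the Il6st position near 9 kb, DCL stood at 52.9 ± 27.9 against 23.9 ± 6.66 in control, and PL at 13.02 ± 1.76 against 40.7 ± 21.9 after DCL (SD, n = 3 each). In the direct comparison the DCL libraries held 65.55, 32.1 and 24.4, and all lay above the 3 PL libraries, at 13.6, 14.4 and 11.04. At the Il6st position near 3.4 kb, DCL stood at 109.9 ± 89.9 against 54.9 ± 3.18 in control, and PL at 40.4 ± 6.41 against 76.9 ± 69.5 after DCL (SD, n = 3 each). PL libraries held 42.8, 45.2 and 33.1 and DCL libraries 157, 43.2 and 30.7, so the second- and third-listed DCL libraries lay within the range of PL or below it, and the log2 ratio of -0.93 turned to 0.13 without the first. At the Stat5b position near 66 kb, PL libraries held 16.1, 12.3 and 7.36 and DCL libraries 65.5, 34.3 and 19.02, all apart. At the Jak1 position near 26 kb, PL libraries held 21.7, 21.6 and 18.4 and DCL libraries 105, 43.2 and 16.1, of which the third lay below all PL values, and the log2 ratio of -1.42 was -0.53 without the first. At the Osmr position 1053 bp from its start, PL libraries held 9.3, 11.3 and 3.68 and DCL libraries 53.9, 11.1 and 8.78. There the first-listed DCL library alone stood above PL, and the log2 ratio of -1.60 was -0.29 without it. At the Lifr position near 26.1 kb, PL libraries held 61.4, 57.6 and 85.9 and DCL libraries 206, 99.7 and 65.3, with overlap, and the deposited adjusted p was 0.0212, the highest of the 21 in the authors' deposited table.

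Outside the 9 genes, 6 further lists of the pathway, 101 genes in all, were counted in the same tables. These lists were also chosen with earlier results of these data known, so their shares are no test of enrichment. A region was listed in 28 of the 101 (27.7%, against 20.2% of protein-coding genes) between PL and control, with 17 higher and 28 lower regions. It was listed in 47 (46.5%, against 38.3%) between DCL and control, with 100 higher and 23 lower regions. Between PL and DCL it was listed in 31, the same share as over all protein-coding genes (30.7%), with 10 higher and 50 lower regions. The counts of the single lists that follow are to be read against those shares of all genes, 20.2%, 38.3% and 30.7% in the same order, and against 49.6% of regions lower after PL than in control, 82.9% higher after DCL than in control and 75.1% lower after PL than after DCL.

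Of 13 ligands, 2 had a region between PL and control, both higher, and none between DCL and control. Between PL and DCL 2 had one, with 1 higher and 2 lower regions. Clcf1, a ligand of the ciliary neurotrophic factor receptor, had a region 2931 bp from its start with 37.2, 25.5 and 30.2 after PL and 18.9, 12.7 and 15.0 in control. In the direct comparison a Clcf1 region 2381 bp from the start had 11.2, 19.5 and 16.0 after PL against 0, 1.11 and 4.88 after DCL. The value of 0 is that of the first-listed DCL library, where it allows up to 7.02 by counting error. The other ligand between PL and control was Osm, oncostatin M.

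Of 23 other cytokine receptors, 5 had a region between PL and control, 3 higher and 8 lower regions in all, and 10 had one between DCL and control, 22 higher and 2 lower, shares near those of all protein-coding genes (20.2% and 38.3%). Ghr, the growth hormone receptor, had 5 regions between PL and control, all lower, and the one with the smallest adjusted p held 2.72, 7.50 and 5.32 after PL against 17.9, 16.03 and 19.02 in control. Between DCL and control Il10rb, a subunit of the interleukin-10 receptor, held 87.8, 16.4 and 18.4 after DCL against 16.6, 18.0 and 17.6 in control, so the first-listed library alone differed. Between PL and DCL all 8 receptor regions were lower after PL, and Ifnar2, an interferon receptor subunit, held 3.1, 8.23 and 6.13 after PL against 53.9, 15.5 and 9.75 after DCL.

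Of 7 other kinases and STATs, 3 had a region between PL and control (2 higher and 2 lower regions; 20.2% of all genes had one), 4 between DCL and control (7 higher and 3 lower; 38.3% of genes) and 3 between PL and DCL (1 higher and 2 lower; 30.7% of genes). Stat5a held 53.3, 26.9 and 13.2 after DCL against 14.6, 11.2 and 9.08 in control, and at the same position 5.58, 5.14 and 9.81 after PL against 39.8, 19.9 and 9.75 after DCL.

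Of 17 inhibitors, 2 had a region between PL and control, with 1 higher and 2 lower regions, against 20.2% of all genes. Between DCL and control 9 had one, with 20 higher and 4 lower regions, against 38.3% of genes, and between PL and DCL 7, with 1 higher and 11 lower, against 30.7%. Socs3, the feedback inhibitor of gp130, had none in any table. In the higher of the regions between PL and control, Ptpn1, a phosphatase that acts on JAK kinases, held 29.9, 27.0 and 26.6 after PL against 9.47, 16.7 and 10.4 in control. Pias3, an inhibitor of STAT3, held 53.3, 68.7 and 23.7 after DCL against 13.7, 18.6 and 21.4 in control, all apart. Ptpn2, another JAK phosphatase, held 16.1, 16.5 and 25.8 after PL against 98.3, 48.7 and 11.2 after DCL, which overlap.

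Of 21 adaptors and downstream kinases, 13 had a region between PL and control, with 7 higher and 15 lower regions, against 20.2% of all genes. Between DCL and control 17 had one, with 43 higher and 11 lower, against 38.3% of genes, and between PL and DCL 11, with 4 higher and 23 lower, against 30.7%. Gab1, a docking protein that binds Ptpn11, had 7 regions in each control comparison, and the leading one between DCL and control held 0, 7.47 and 9.21 after DCL against 24.4, 28.5 and 24.6 in control. Stam, a signal transducing adaptor, held 8.06, 16.5 and 9.81 after PL against 91.3, 11.1 and 2.93 after DCL, and its log2 ratio turned to 0.71 without the first-listed DCL library.

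Of 20 STAT3 target genes, 3 had a region between PL and control, with 2 higher and 1 lower regions, against 20.2% of all genes. Between DCL and control 7 had one, with 8 higher and 3 lower, against 38.3% of genes. Between PL and DCL 3 had one, with 3 higher and 4 lower, against 30.7%. Bcl2, an inhibitor of cell death, held 29.9, 25.5 and 24.8 after PL against 14.7, 12.0 and 11.0 in control. Its leading region between DCL and control held 154, 10.5 and 19.7 after DCL against 33.1, 19.2 and 17.1 in control, with a log2 ratio of 1.40 that was -0.62 without the first-listed library. At an overlapping position it held 13.0, 10.3 and 14.7 after PL against 115, 7.75 and 14.1 after DCL.

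Markers of the cell types of the ganglion were listed too. Between PL and control, 3 of 12 glial, none of 10 immune, 4 of 12 sensory neuron and 2 of 7 vascular and fibroblast markers had a region, against 20.2% of all protein-coding genes. Their regions were 2 higher and 1 lower in glial, 6 higher and 3 lower in neuronal, and 1 higher and 1 lower in vascular and fibroblast markers. Between DCL and control they numbered 7 of 12, 2 of 10, 6 of 12 and 4 of 7 in the same order, against 38.3% of genes, with 5, 1, 13 and 10 higher and 4, 1, 4 and 2 lower regions. Between PL and DCL they numbered 4 of 12, 1 of 10, 5 of 12 and 3 of 7, against 30.7% of genes, with 0, 0, 7 and 0 higher and 6, 1, 9 and 4 lower regions. In each of the 3 lists with a region, the marker with the smallest deposited adjusted p between PL and control was higher after PL; these were Mbp, a myelin gene (79.8, 81.0 and 117 after PL against 62.1, 55.4 and 49.6 in control), the neurotrophin receptor Ntrk3 (22.7, 18.0 and 16.0 after PL against 10.5, 6.68 and 5.19 in control) and Dcn, a fibroblast matrix gene (12.7, 13.5 and 26.6 after PL against 7.36, 6.01 and 4.03 in control). Pmp22 and Kdr were the glial and the vascular marker with a lower region, and Ntrk2 had 3 lower and 2 higher ones; they are named after their values were seen. The part of cell makeup in the regions of the 9 genes was not tested.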

How the data were processed

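5-hmC-enriched DNA of 9 libraries, 3 each of PL, DCL and control, was described from 3 deposited tables of pairwise regions. The submitters' processing notes name the mm9 build, MACS2 2.1.1, SAMtools 0.1.19 and Bowtie2 2.2.0; the sources used here do not give the region test, its filters or the treatment of reads with several matches. Per the file headers and values, each group cell holds 3 normalised read counts (1 per library), and the authors' deposited signal is their mean. The deposited ratio is an enrichment over a background the header does not name, and it was not used. The deposited log2 values are ratios of the group means with no pseudocount, and the deposited p-values and adjusted p-values come from a test the authors' tables do not name.

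The step between low values gave the worth of 1 read, and 100% of low values were whole reads within 0.1. The libraries carry no replicate number, and nothing says more of the pools than that each held 3 animals. Because the rows are a selection by the authors, no model was fitted and no p was computed. Computed here were means, SDs, separation of libraries, ratios without 1 library, and shares of 21900 protein-coding genes with a region (10205 of 11203 gene names in the tables matched), with Python 3.11.15, NumPy 2.4.6, pandas 2.3.3 and Matplotlib 3.10.9, and steps were tested on simulated data. Intervals and floors cover counting error only.

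The 9 genes and all lists were chosen with earlier results of these data known. By rule, library values were given for regions between PL and control, regions listed in 2 tables, and the smallest adjusted p per gene, direction and table; other regions given by library were chosen after their values were seen. Of other lists the gene with the smallest adjusted p per table was named, of markers only that between PL and control; some of these are not reported here.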

Additional observations from a re-analysis of the deposited data

How the results depend on the processing

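The count of 20 regions higher after DCL than in control was 7 when all libraries had to lie apart, and 8 to 20 at 1.5-fold when 1 library was left out; the lowest was without the first-listed DCL library. The count of 16 regions lower after PL than after DCL was 9 with all libraries apart and 10 to 16 when 1 library was left out, again lowest without the first-listed DCL library. The count of 6 lower after PL than in control was 4 at an adjusted p under 0.01 and 6 without any 1 library. Leaving out 1 library in turn gave log2 ratios of -0.21 to 1.23 in the Stat5b region at 100667461 (DCL over control), and, PL over DCL, of -1.31 to 0.13 in Il6st at 113257541, -1.76 to 0.049 in Lifr at 7085521 and -1.60 to 0.21 in Lifr at 7097521. On reads before scaling, which by construction shift all regions of a table by the depth of the libraries, 16 of the 20 regions higher after DCL turned: Stat5b -0.21, -0.22, -0.57, -0.34, -0.46 and -0.12, Stat3 -0.24, Il6st -0.38, Osmr -0.20 and -0.33, Lifr -0.15 and -0.26, Il6ra -0.029, Jak1 -0.11 and -0.12, and Ptpn11 -0.024. A pseudocount of 1 turned none of the 57. No paired analysis was possible because no replicate number marks the values of a cell. Depth limits the regions with 0 to 3 reads in the first-listed DCL library. There 1 read is worth 3.14 between DCL and control and 2.34 between PL and DCL.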
